A study of Mus musculus with 6 samples.

Results

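The genes described here encode translation initiation and elongation factors, measured in mouse embryonic fibroblasts (MEFs, cultured connective tissue cells of the embryo). They were taken as every row of the array table whose symbol begins with Eif2 to Eif6 or with Eef1 or Eef2, apart from the eIF2 alpha kinases and Eif2a, Eif2s1, Eif4g2, Eif5 and Eif5b. This gave 82 of 25697 probes and 51 symbols, which stand for 48 genes under current names. Of these, 4 are Argonaute genes (Ago1 to Ago4), which the array files under the older symbols Eif2c1 to Eif2c4 and which encode the small RNA binding proteins of RNA silencing, not translation factors. The remaining 44 are factor genes.

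The series compared MEFs with 2 forms of NELF-B, which belongs to the complex NELF (negative elongation factor) that pauses RNA polymerase II near promoters. The genotype labels read truncated NELF-B, with ATG in the titles, and full length NELF-B, with FL in the titles. There were 3 samples of each form, all on the C57BL/6 background and grown in DMEM with 10% fetal bovine serum to 50% confluence. The labels do not say how each form was introduced, whether a line was 1 clone, or whether the 3 samples of each came from cultures of their own. The p-values therefore measure only the spread among these samples, and that spread may be technical. The title of the series concerns NELF-B translation from a start codon other than AUG.

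Initiation begins when eIF2, bound to GTP and the initiator tRNA, joins the small ribosomal subunit together with eIF3, and eIF2B recharges eIF2 with GTP after each round. The mRNA is brought in by eIF4F, in which eIF4E binds the cap, eIF4G is the scaffold and eIF4A unwinds the leader, while 4E-BPs keep eIF4E from eIF4G. During elongation eEF1A delivers aminoacyl-tRNA, the eEF1B subunits recharge eEF1A, eEF2 moves the ribosome by a codon, and eIF5A relieves stalled peptide bonds. Growing cells hold many of these transcripts at high levels, and several are known targets of the transcription factor MYC.

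MYC binds the sequence CACGTG, which is its own reverse complement, so the promoters of the members were searched for it. The promoter table of RefSeq (build GRCm38.p6, from 250 bases before to 50 bases after each annotated start) held 37 of the 48 genes and 31 of those tested below. Of these 31 tested members, 10 (32.3%) had CACGTG at 1 or more of their starts, against 843 of 7047 tested genes in the table (11.96%). The 4 shown were chosen because the arrays gave values above 0 for the first 2 (truncated over full-length) and below 0 for the other 2. Each line gives the 100 bases before a start, 5′ to 3′ on the gene's strand, with CACGTG in capitals.
Eif4g1: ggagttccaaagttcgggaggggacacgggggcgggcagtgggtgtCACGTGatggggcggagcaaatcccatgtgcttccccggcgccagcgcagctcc
Eif5a: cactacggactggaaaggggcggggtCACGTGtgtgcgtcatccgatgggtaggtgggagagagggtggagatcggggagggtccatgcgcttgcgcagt
Eif3f: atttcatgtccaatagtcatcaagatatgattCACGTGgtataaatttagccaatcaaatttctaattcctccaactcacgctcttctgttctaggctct
Eef2: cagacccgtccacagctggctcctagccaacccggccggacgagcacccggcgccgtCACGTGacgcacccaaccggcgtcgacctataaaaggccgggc
They lie at chr16:20672627-20672726 (plus strand), chr11:69921387-69921486 (minus strand), chr7:108934315-108934414 (plus strand) and chr10:81176531-81176630 (plus strand). Eif5a has 6 annotated starts, of which 1 with the motif in this window is shown, and a gene with more starts has more chances of a match. A match is a description of these letters and was not tied to binding. Among the 10 members with CACGTG, 5 had values above 0 and the median log2 fold change was 0.02. Among the 21 without it, 16 had values above 0 and the median was 0.11. Over all tested genes the medians were 0.03 with the motif and 0.01 without. A second search looked for a 5′ TOP-like tract, here a C followed by at least 4 C or T on the gene's strand, starting within 10 bases of a start. It was found in 12 of the 31 members (38.7%) and in 37.3% of tested genes. The pattern is loose and matched 30.7% of the starts of all genes, so these shares cannot show whether the members carry true 5′ TOP tracts.

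The arrays were single-colour Illumina bead arrays. The median intensity lay between 143 and 152, with 46.4% to 48.7% of probes above background. Of 9 fibroblast markers with a probe, 7 were above background on all 6 arrays, while Thy1 and Lum were so on none. Of 21 markers of epithelial, leukocyte, endothelial, muscle and neural cells with a probe, 2 (Cd68 and Nes) were above background on all 6. The 7 tested fibroblast markers had summed log2 levels of 68.5 to 69.2 with the truncated and 70.8 to 71.3 with the full-length form. Of them 5 (Col1a1, Col1a2, Col3a1, Pdgfra and Pdgfrb) had lower values at an unadjusted p under 0.05, where 10.3% of all genes did, and none passed after adjustment. The other 2, Vim (0.08) and S100a4 (0.12, as log2 fold changes), lay above 0, so the markers did not all go the same way. Of 8 tested markers of other cell types 3 met the same unadjusted threshold in either direction, where 20.1% of all genes did, and 0 passed. The 3 were Krt19 (0.56), Kdr (-0.44) and Des (-0.41, as log2 fold changes), all with dim probes. Des was above background on 0 truncated and 3 full-length arrays, Kdr on 1 and 3, and Krt19 on 3 and 2. Des was thus tested only through the form where it was higher. The 3 full-length arrays alone were enough for Kdr to be tested, and the 3 truncated arrays alone for Krt19. None of these 3 differences is therefore evidence of a marker change. The summed levels of the tested epithelial markers were 10.88 to 10.95 with the truncated and 10.43 to 10.74 with the full-length form. Of these markers Krt19 was higher and Cdh1 lower (-0.19). The sums overlapped for leukocyte markers (10.48 to 11.49 against 10.58 to 11.32) and for neural markers (12.80 to 13.06 against 12.19 to 13.06). The level of the 1 endothelial marker tested, Kdr, was 4.75 to 5.05 against 5.25 to 5.51. That of the 1 muscle marker, Des, was 4.64 to 5.12 against 5.14 to 5.51. Both levels, and the epithelial sum through Krt19, carry the limit just given and are no evidence of a marker change. The part of all these markers in the values below was not tested, and in such bulk samples fewer cells of a type and less RNA per cell cannot be told apart. Nelfb itself had a log2 intensity of 7.01 ± 0.08 (SD, n = 3) in truncated and 6.69 ± 0.09 (SD, n = 3) in full-length samples, and differed by 0.32 ± 0.11 (limma, adjusted p = 0.144). Where its probe lies in the transcript is not given, so this does not check which form a sample carried. All values below are log2 intensities after background correction and quantile normalization. Each fold change sets truncated over full-length and carries limma's standard error, and p-values are adjusted by Benjamini-Hochberg over 8990 genes. The number of arrays, 3 of each form, limits the precision, and a two-sided exact permutation test of 3 against 3 arrays cannot go below 0.1.

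Of the 82 probes, 55 were above background on all 6 arrays, 6 on 3 to 5 arrays, 1 on 1 or 2 arrays and 20 on none. A gene was tested where a probe was above background on at least 3 arrays, which left 39 of the 48 genes. The 9 others were Eif2s3y, Eif3e, Eif3j1, Eif4e1b, Eif4ebp3, Eif5a2, Eef1a2, Ago1 and Ago4. Eif3j1 was above background on 2 arrays and the rest on none. Eif2s3y is the Y-linked copy of the eIF2 gamma gene, Eif5a2 and Eef1a2 are the tissue-restricted paralogs of Eif5a and Eef1a1, and Eif4e1b is an eIF4E relative of egg cells. A probe below background gives no order between the forms, and for Eif3e, a core subunit of eIF3, a single probe was present.

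None of the 39 tested genes passed an adjusted p under 0.05 with limma (0 of 39), where 1.60% of all 8990 genes did. At an unadjusted p under 0.05 there were 6 (15.4%), against 20.1% of all genes. These were Eif4g1, Eif4e3, Eif5a, Eif4ebp1 and Eif2b2 with higher values in truncated cells (5, where 9.78% of all genes were higher) and Ago2 with lower ones (1, where 10.3% were lower). For 11 of the 39 (28.2%) no truncated array fell within the full-length range or the reverse, 9 higher and 2 lower, against 25.7% of all genes, of which 12.9% were higher and 12.8% lower. By direction, 23.1% of the members were higher and 5.13% lower without overlap, and at an unadjusted p under 0.05 these were 12.8% and 2.56%. Values were above 0 for 28 of the 39 genes, below 0 for 10 and at 0 for 1, and the median log2 fold change was 0.11. Of all genes 51.7% were above 0, with a median of 0.01. With median scaling in place of quantile normalization 24 of the 39 were above 0, with a median of 0.07 among the members and -0.05 over all genes. The 95% confidence interval lay within 1.5-fold either way for 30 of the 39 (76.9%) and within 2-fold for 38 (97.4%), against 69.9% and 97.1% of all genes. Folds of dim probes are understated by the background offset, so for them the interval covers the fold as measured, which can be smaller than that of the RNA.

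**Figure D1:**
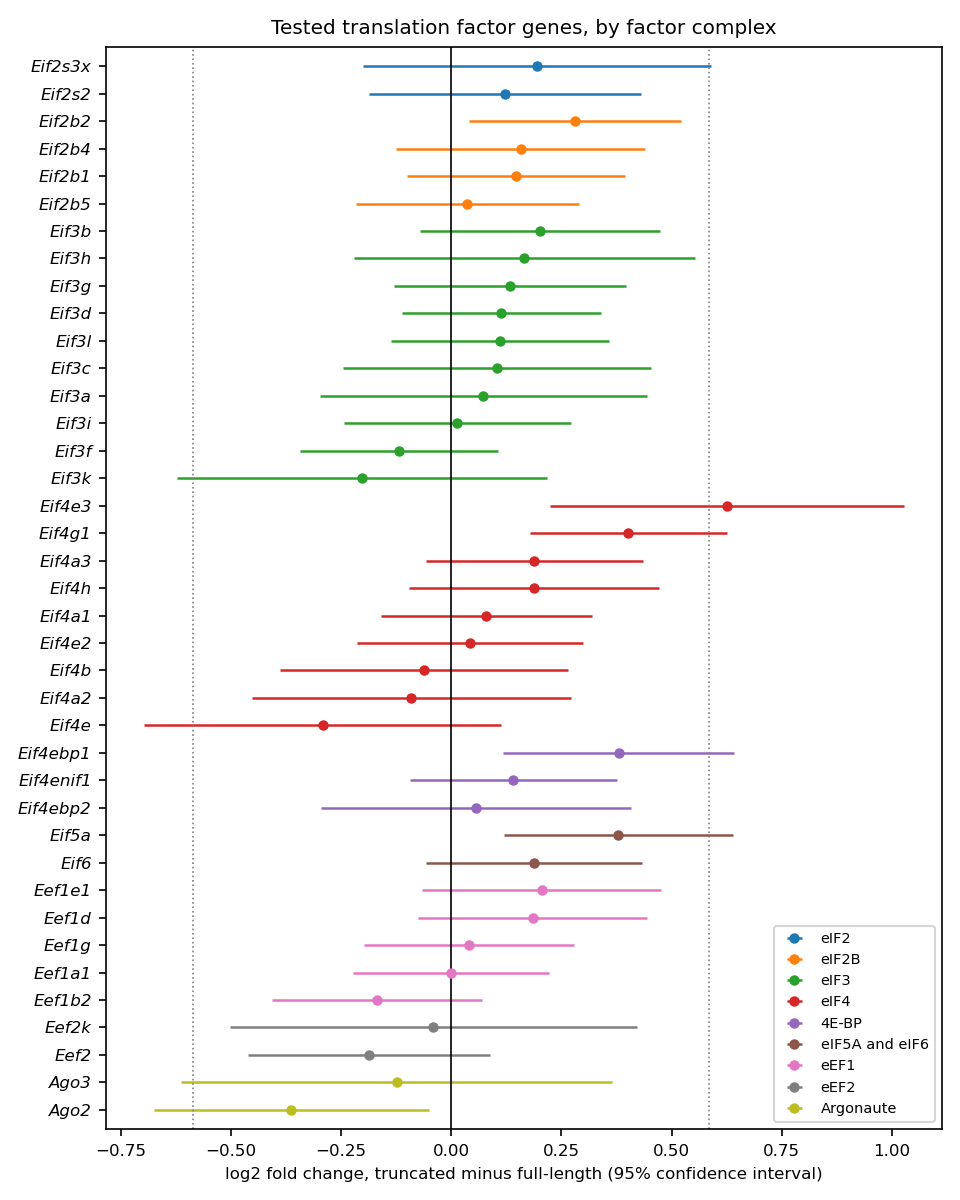
Log2 fold change, truncated over full-length, of the 39 tested genes (points, coloured by factor complex) with 95% confidence intervals from limma (bars); the dotted lines mark 1.5-fold. Most points lie between 0 and the upper dotted line, and the interval of Eif4e3 is the only 1 that reaches past 2-fold (1 on this axis).

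Among the genes of eIF2 and eIF2B, Eif2b2 was the only 1 with an unadjusted p under 0.05. Eif2b2, the beta subunit of the exchange factor, read 8.91, 8.83 and 8.71 on truncated replicates 1, 2 and 3 and 8.53, 8.48 and 8.59 on the full-length arrays. The forms did not overlap, and the log2 fold change was 0.28 ± 0.11 (1.21-fold, adjusted p = 0.190). Eif2b1, the alpha subunit, read 9.93, 9.95 and 9.72 with the truncated form and 9.76, 9.72 and 9.69 with the full-length form (0.15 ± 0.11, adjusted p = 0.494). The second, dimmer Eif2b1 probe gave 0.29 ± 0.13 (adjusted p = 0.28). On both probes truncated replicate 3 lay within the full-length range. Eif2b4, the delta subunit, showed the same layout, at 10.27, 10.38 and 10.01 against 9.98, 10.08 and 10.12 (0.16 ± 0.12, adjusted p = 0.522). Eif2b5, the catalytic epsilon subunit, stood at 0.04 ± 0.11, and its 2 further probes at 0.02 and 0.05. All 4 eIF2B genes tested had values above 0, where 51.7% of all genes did. With median scaling, or without full-length replicate 1, 3 of the 4 did.

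The eIF2 genes varied more within a form than between forms. Eif2s3x, the X-linked gamma subunit gene, read 10.37, 9.86 and 10.16 on the truncated arrays and 9.81, 10.25 and 9.74 on the full-length arrays, a log2 fold change of 0.19 ± 0.17 (adjusted p = 0.582). Eif2s2, the beta subunit gene, read 10.38, 10.16 and 10.45 against 10.17, 10.42 and 10.04 (0.12 ± 0.14, adjusted p = 0.665). On these probes both genes were high on truncated replicates 1 and 3 and full-length replicate 2 and lower on the other 3 arrays. The dimmer Eif2s2 probe, at 0.02 ± 0.14, did not show this layout. On that probe truncated replicate 3 lay below truncated replicates 1 and 2.

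Of the eIF3 genes, 10 of 12 were tested, with log2 fold changes from -0.20 to 0.20 and a median of 0.11. Eif3b, the scaffold subunit, read 10.23, 10.21 and 9.96 on the truncated arrays and 9.97, 10.02 and 9.81 on the full-length arrays (0.20 ± 0.12, adjusted p = 0.391). Truncated replicates 1 and 2 lay above every full-length array and replicate 3 among them. Eif3f, a subunit of the MPN domain family, went the other way, at 14.01, 14.00 and 13.98 against 14.12, 14.06 and 14.17. These arrays did not overlap, though the difference was small (-0.12 ± 0.10, adjusted p = 0.550). Eif3g, an RNA-binding subunit, read 13.05, 13.15 and 13.02 against 13.11, 12.83 and 12.87 (0.13 ± 0.12, adjusted p = 0.568). Its other probe gave 0.17.

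None of the remaining eIF3 genes passed. Eif3d, a subunit that can bind the cap of some mRNAs, stood at 0.11 ± 0.10, without overlap of the forms. Eif3l stood at 0.11 ± 0.11, Eif3c at 0.10 ± 0.15, Eif3a at 0.07 ± 0.16 and Eif3i at 0.01 ± 0.11. Eif3h stood at 0.17 ± 0.17 with 1 high array, 6.45 on truncated replicate 1 against 5.74 to 5.98 on the other 5. Eif3k stood at -0.20 ± 0.19, also with 1 array apart, 10.58 on full-length replicate 3 against 9.77 to 10.24 on the others. The interval of Eif3k reached from -0.62 to 0.22, and those of the 9 other eIF3 genes lay within 1.5-fold.

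The genes of the cap-binding and helicase group spread most. Eif4g1, the eIF4F scaffold, had the smallest p among the 39 and ranked 314th of 8990 genes by p. It read 10.25, 10.26 and 10.18 on the truncated arrays and 9.81, 9.83 and 9.85 on the full-length arrays, so the forms were apart by more than their spread. The log2 fold change was 0.40 ± 0.10 (1.32-fold, adjusted p = 0.081), with a 95% interval from 0.18 to 0.62. Of 20 alternative fits it passed in 6, and over all 20 the adjusted p ran from 0.0086 to 0.25 and the log2 fold change from 0.35 to 0.43. Eif4e3, a cap-binding relative of eIF4E, read 5.60, 5.74 and 5.84 against 4.70, 5.42 and 5.18, the largest log2 fold change of the 39 (0.63 ± 0.18, 1.54-fold, adjusted p = 0.111). Its probe was dim, above background on all 3 truncated arrays and 2 of the 3 full-length arrays, and 2 further Eif4e3 probes were above background on none. With no background correction its log2 fold change was 0.18.

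The other genes of the group lay nearer to 0. Eif4a3, the helicase of the exon junction complex, read 11.91, 11.91 and 11.69 against 11.63, 11.64 and 11.67. Its arrays did not overlap (0.19 ± 0.11, adjusted p = 0.374). Among the eIF4A helicases of initiation, Eif4a1 stood at 0.08 ± 0.11 and Eif4a2 at -0.09 ± 0.16, and the dimmer Eif4a1 probe gave 0.29 ± 0.12 (adjusted p = 0.224). The eIF4A cofactors Eif4h and Eif4b stood at 0.19 ± 0.13 and -0.06 ± 0.14. Eif4e, the cap-binding protein itself, read 5.22, 4.69 and 4.82 against 4.90, 5.41 and 5.30 (-0.29 ± 0.18, adjusted p = 0.402). The Eif4e probe was above background on only 1 truncated and 2 full-length arrays, so little can be read from its level. Eif4e2, a cap-binding repressor, stood at 0.04 ± 0.11, and its 2 dimmer probes at 0.32 ± 0.15 and -0.03 ± 0.14.

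Eif4ebp1, the inhibitor of eIF4E that mTOR controls and that is also a target of the stress factor ATF4, read 12.50, 12.73 and 12.62 on the truncated arrays and 12.31, 12.30 and 12.10 on the full-length arrays. The lowest truncated array lay above the highest full-length one, with a log2 fold change of 0.38 ± 0.12 (1.30-fold, adjusted p = 0.123). Its adjusted p ran from 0.0119 to 0.288 over 20 alternative fits, 4 of which passed. Eif4enif1, which carries eIF4E into the nucleus, read 10.07, 10.05 and 10.23 against 10.01, 9.96 and 9.96 (0.14 ± 0.10, adjusted p = 0.489), and its dimmer probe gave -0.002 ± 0.14. Eif4ebp2 read 8.60, 8.70 and 8.997 against 8.89, 8.80 and 8.44 (0.06 ± 0.15, adjusted p = 0.877), with overlap of the forms and a sign that turned under 4 alternatives.

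**Figure D2:**
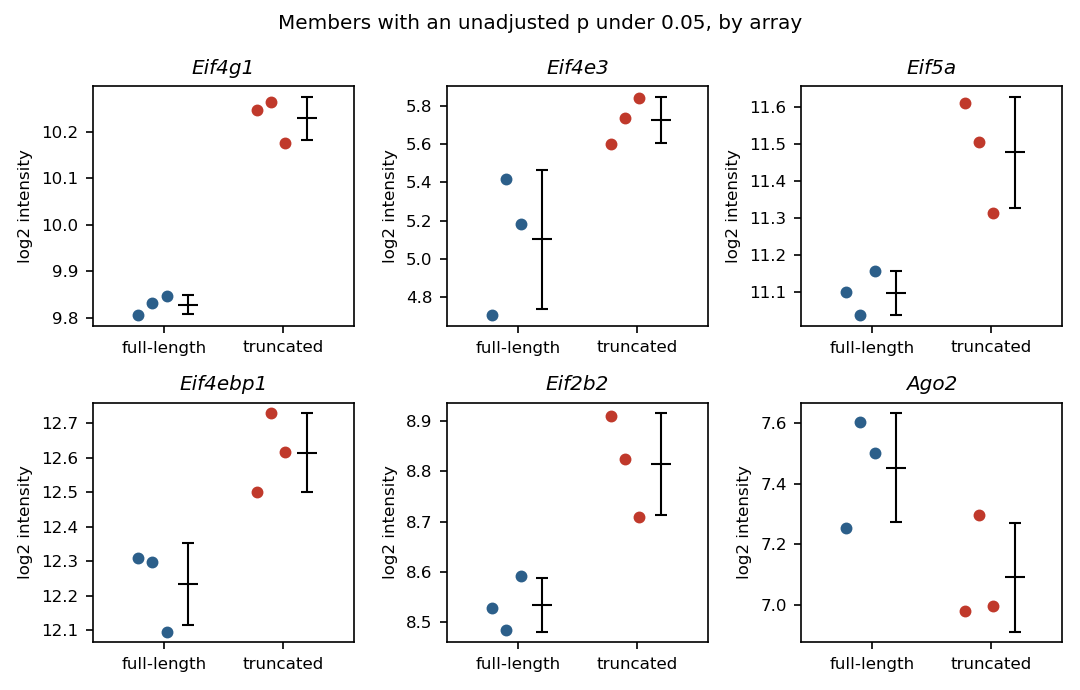
Log2 intensity on each array (points, in replicate order from left to right) for the 6 genes with an unadjusted p under 0.05, with the mean and SD of each form (black, n = 3); each panel has its own axis, which does not start at 0. The forms are apart for Eif4g1, Eif4e3, Eif5a, Eif4ebp1 and Eif2b2 and overlap for Ago2.

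Eif5a, the hypusine-bearing factor, read 11.61, 11.50 and 11.31 on the truncated arrays and 11.10, 11.04 and 11.16 on the full-length arrays. Every truncated array lay above every full-length array, replicate 3 by the least, and the log2 fold change was 0.38 ± 0.11 (1.30-fold, adjusted p = 0.122). Over the 20 alternatives the adjusted p ran from 0.0188 to 0.35, and 4 passed. The second Eif5a probe gave 0.20 ± 0.12 (adjusted p = 0.407), and truncated replicate 3 there lay within the full-length range, at 11.13 against 11.12, 11.10 and 11.17. Eif6, which keeps the large ribosomal subunit from joining too early, read 12.26, 12.12 and 12.01 against 11.91, 11.98 and 11.94 (0.19 ± 0.11, adjusted p = 0.376), again with no overlap.

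The elongation factor genes showed differences of both signs. Eef1e1, which despite its symbol encodes a scaffold protein of the aminoacyl-tRNA synthetase complex, read 8.99, 9.04 and 8.74 on the truncated arrays and 8.69, 8.66 and 8.81 on the full-length arrays (0.21 ± 0.12, adjusted p = 0.378). Eef1d, an exchange factor for eEF1A, read 13.14, 13.25 and 13.10 against 12.84, 12.98 and 13.12 (0.19 ± 0.11, adjusted p = 0.407). Its second, dimmer probe was designed against another transcript record of the gene and gave 0.54 ± 0.14 (adjusted p = 0.102), at 9.07, 9.09 and 8.81 against 8.24, 8.46 and 8.64. That probe was singled out after its values were seen. Further Eef1d probes were not above background on at least 3 arrays and so were not tested. Eef1b2, the other exchange factor gene, had lower values with the truncated form, at 12.55, 12.52 and 12.37 against 12.60, 12.70 and 12.64. Its forms did not overlap, with a log2 fold change of -0.17 ± 0.11 (adjusted p = 0.413), and its 2 further probes gave -0.24 and -0.11. Eef1g, the structural subunit, stood at 0.04 ± 0.10.

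Eef1a1 was chosen for mention after its values were seen, because its log2 fold change was 0.00 ± 0.10. Its probe was among the brightest on every array, in place 2, 4 or 5 with either form, and quantile normalization gives the same value to the same place on each array. The measured intensities were 38315, 39439 and 42369 on the truncated arrays and 44133, 42734 and 41556 on the full-length arrays. With median scaling, which does not tie values to places, the log2 fold change was -0.07 ± 0.12. Processed copies of Eef1a1 exist in the genome, so its probe may read more than 1 locus.

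Eef2, the translocase, read 11.48, 11.57 and 11.52 on the truncated arrays and 11.82, 11.80 and 11.50 on the full-length arrays (-0.19 ± 0.12, adjusted p = 0.430). Full-length replicate 3 lay with the truncated arrays, and the 2 further probes gave -0.08 and -0.17. Without full-length replicate 3 the log2 fold change was -0.29. Eef2k, the kinase that inhibits eEF2, read 5.24, 5.78 and 6.00 against 5.55, 5.59 and 6.01 (-0.04 ± 0.20, adjusted p = 0.939), a spread within each form far wider than the difference.

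The Argonaute genes filed as Eif2c had values below 0. Ago2, the family member that cuts target RNA, read 6.98, 7.30 and 6.996 on the truncated arrays and 7.25, 7.603 and 7.50 on the full-length arrays. Truncated replicate 2 lay above full-length replicate 1, and the log2 fold change was -0.36 ± 0.14 (1.29-fold lower, adjusted p = 0.190). Ago3 read 5.52, 5.09 and 5.49 against 5.78, 5.70 and 4.99 (-0.12 ± 0.22, adjusted p = 0.790). Its 2 further probes gave 0.06 and -0.48, so the Ago3 probes differed in sign, and all of them were dim.

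For 16 of the 39 genes more than 1 probe was tested, and 13 of these had no probes of opposite sign, Eef1a1 with its value of 0 among them. Eif4e2, Eif4enif1 and Ago3 had probes of both signs. Of the 61 member probes tested, 9 had an unadjusted p under 0.05, against 19.0% of all probes, and 0 passed after adjustment.

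Across arrays, the values of the 39 genes, centred on each gene's mean, averaged 0.06, 0.06 and 0.01 on truncated replicates 1, 2 and 3 and -0.08, 0.02 and -0.07 on full-length replicates 1, 2 and 3. Over all tested genes the same averages lay between -0.01 and 0.01. By the average of the 39 genes alone, truncated replicate 3 and full-length replicate 2 were the nearest of any 2 arrays of different forms. Full-length replicate 3 was the lowest array for 12 genes and truncated replicate 2 the highest for 11.

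**Figure D3:**
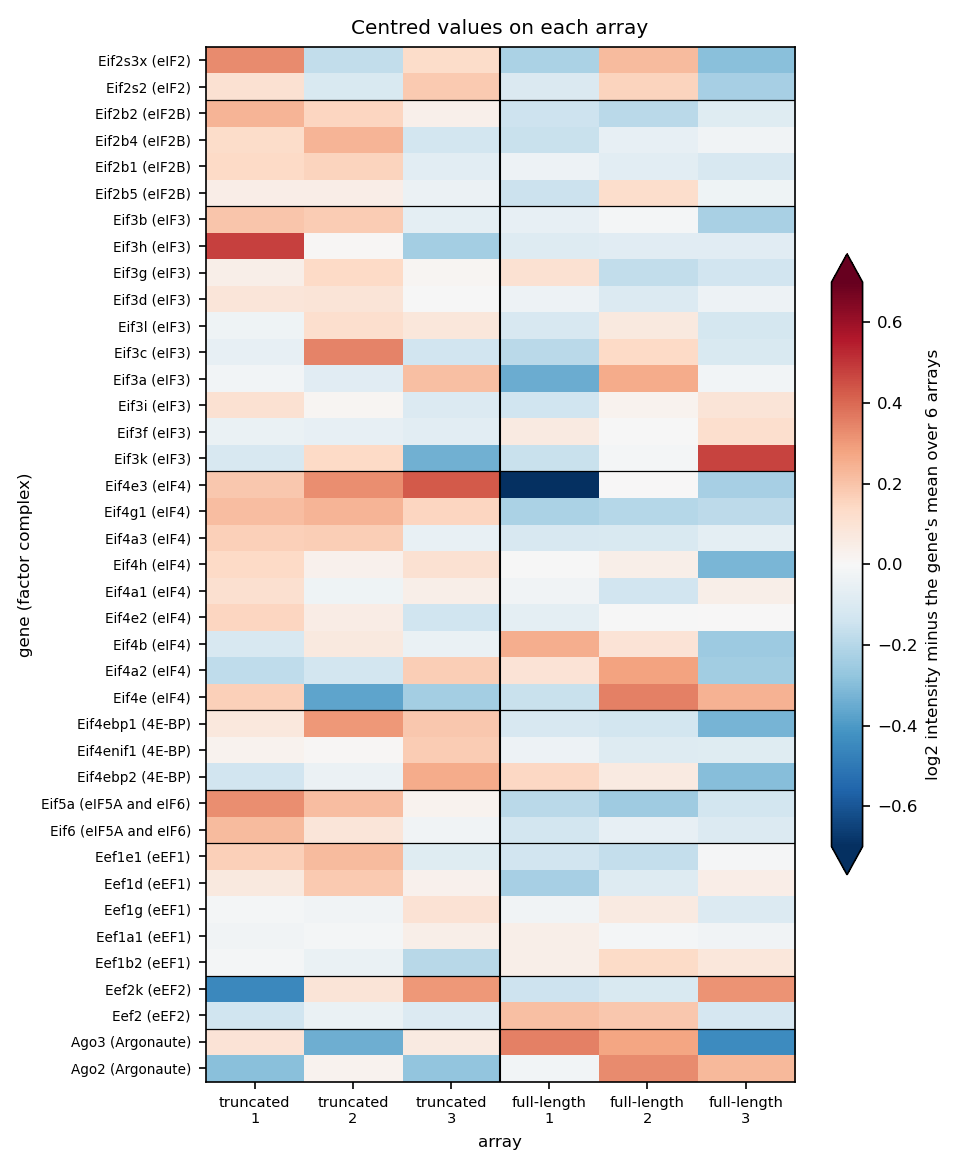
Log2 intensity of the 39 tested genes (rows, by factor complex) on the 6 arrays (columns), each gene centred on its mean; red is above and blue below that mean. Eif4g1, Eif4ebp1 and Eif5a are red on the truncated and blue on the full-length arrays, while Eif2s2, Eif3a and Eif4a2 are highest or second highest on full-length replicate 2.

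Other genes of translation and its control were read from lists outside the rule, of which 45 of 62 genes were tested. Of these 45, 1 fell (Pdcd4, where 1.09% of all genes fell), 0 rose and 7 (15.6%) had an unadjusted p under 0.05, against 20.1% of all genes. Pdcd4, which binds eIF4A and blocks initiation, read 5.28, 6.12 and 5.62 on the truncated arrays and 6.67, 6.55 and 6.81 on the full-length arrays. All truncated arrays lay below all full-length arrays (log2 fold change -1.001 ± 0.20, adjusted p = 0.0487). It lay at the threshold, and over the 20 alternatives the adjusted p ran from 0.00479 to 0.145. Without truncated replicate 1 the adjusted p was 0.138, and without truncated replicate 3 it was 0.067. It was 0.145, 0.114 and 0.132 without full-length replicates 1, 2 and 3 in turn. It was 0.0935 with no filter on dim probes, 0.0603 with every probe fitted on its own and 0.0785 with the replicate number as a block. Pdcd4 passed in the rest, among them at 0.0435 without truncated replicate 2 and 0.00713 with an offset of 50. Its probe was dim, and the log2 fold change was -0.37 with no background correction and -0.36 in the authors' series matrix values. The adjusted p was 0.0172 and 0.015 in these 2 fits. It was the only 1 to pass of 13 tested genes of mTOR and MNK control, with 6 of the 13 above 0 and a median of -0.06.

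In the other 6 lists no gene passed in this fit. Of 20 alternatives Pabpc4 and Dph2 passed in 5 each (adjusted p from 0.0198 to 0.286 and from 0.0209 to 0.286 over all 20) and Ppp1r15b in 3 (0.042 to 0.22). Among initiation factors outside the rule, 9 were tested and 7 had values above 0, where 51.7% of all genes did. Eif1ad stood at 0.21 ± 0.13 (adjusted p = 0.413). Of 4 genes for eIF2 alpha kinases and their phosphatase, Ppp1r15b, which recruits that phosphatase, stood at 0.48 ± 0.11 (adjusted p = 0.0636). Its probe was dim, and the log2 fold change was 0.19 with no background correction and 0.18 in the authors' series matrix values. Among 6 release and recycling factors Gspt1, the release factor eRF3a, stood at 0.28 ± 0.12 (adjusted p = 0.234). Of 5 poly(A)-binding proteins and partners, Pabpc4 stood at 0.48 ± 0.13 (adjusted p = 0.102). All 4 tested hypusine and diphthamide enzymes had values above 0, where 51.7% of all genes did. Dph2, of the diphthamide pathway that modifies eEF2, stood at 0.48 ± 0.13 (adjusted p = 0.0951). With the mean of its tested probes Dph2 stood at 0.29 ± 0.11 (adjusted p = 0.195). Of 4 selenocysteine genes Secisbp2 stood at -0.23 ± 0.12 (adjusted p = 0.333).

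How many members passed differed between settings. With no background correction, Eif4g1, Eif4ebp1 and Eif5a passed (3 of 39, 7.69%), where 7.85% of all genes did. The same 3 passed with plain normexp (7.04% of all genes), with the authors' series matrix values (8.13%) and with a variance trend and robust eBayes (8.10%). Eif4g1 alone passed with an offset of 50 (5.91%) and with array weights (3.94%). The other 14 alternatives called none of the tested members. Of all genes they called 0.901% with median scaling, 1.74% with cyclic loess, 0.184% with no filter, 3.13% with detection on all 6 arrays, 3.01% with a detection p under 0.01 and 0.367% with the replicate block, and with the mean of a gene's probes they called 135 genes. Leaving out an array called 3.05% without truncated replicate 3 and 0 to 9 genes without any 1 of the other 5. Where the 3 genes passed, their log2 fold changes lay between 0.34 and 0.42.

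**Figure D4:**
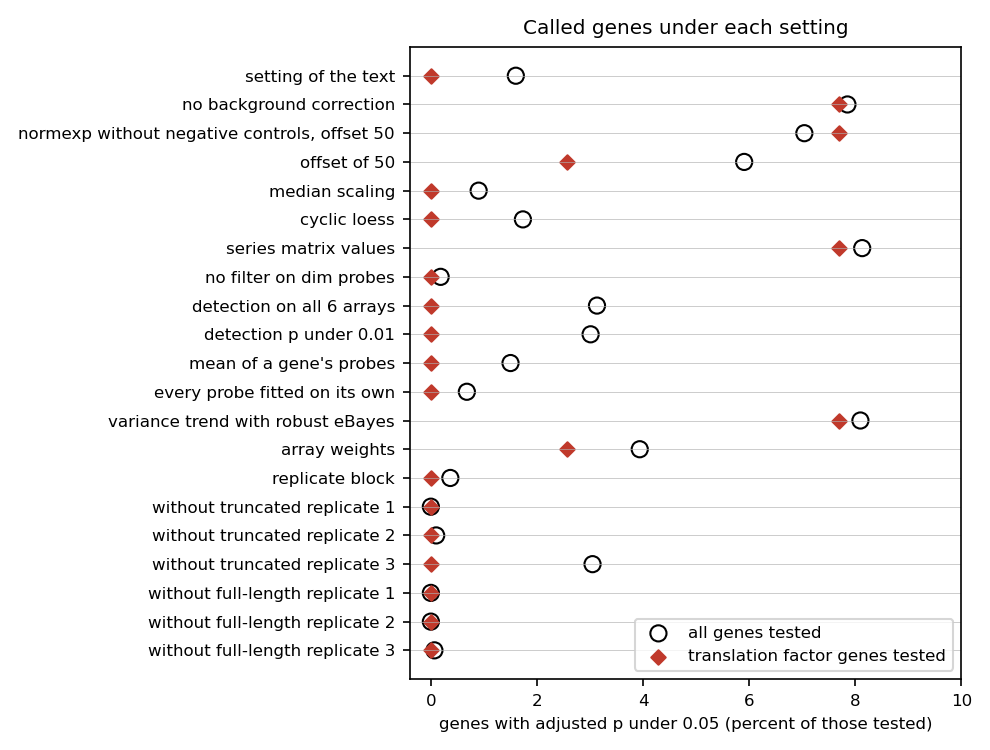
Percent of tested genes with an adjusted p under 0.05 under the setting of the text and each of 20 alternatives, for the member genes tested, Argonaute genes included (red diamonds), and all genes tested (open circles). The diamonds are above 0 in 6 alternatives, which are the 6 with the highest share of all genes called (3.94% to 8.13%).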

How the data were processed

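The authors deposited a non-normalized table of average bead intensity per probe and array with no background subtraction, and a detection p-value of each probe, per the file headers. GenomeStudio is named in the submitters' processing notes. The series matrix holds the authors' normalized intensities on a linear scale, by a method not given in the sources used here, and served as an alternative. All columns of values were used.

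From the non-normalized table, normexp correction (negative controls inferred from the detection p-values, offset 16), quantile normalization and log2 were done with neqc of limma 3.58.1 in R 4.3.3. The 12227 probes detected (p under 0.05) on 3 or more of the 6 arrays were kept, and each gene was represented by its probe with the highest mean. The 8990 genes were fitted with lmFit and eBayes on 3 arrays of each form, with Benjamini-Hochberg adjustment over all of them and a threshold of 0.05. The code was tested on simulated data. No 2 arrays held identical values. The number of arrays limits the precision. Chip and scan date, not given in the sources used here, were not fitted.

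Of the 82 rows, 81 were named by accession through RefSeq (GRCm38.p6) and 1 by symbol, and 16 stood under older symbols. The members and lists were chosen with earlier results of these data known. Values on every array are given for the 3 genes with the smallest p in each factor complex, and outside the rule for genes past the threshold, with the smallest p of each list named. Eef1a1, Eif4e and the further probes were added after their values were seen. The alternatives changed background correction, offset, normalization, dim-probe filter, probes per gene, variance model and replicate block, or left out each array.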

Additional observations from a re-analysis of the deposited data

How the results depend on the processing

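The count of called members (the Argonaute genes included here and below) was 0 and became 3 with no background correction, plain normexp, series matrix values or a variance trend with robust eBayes, and 1 with an offset of 50 or array weights. It was 0 in the 14 other alternatives, among them every fit that left out an array. The count at an unadjusted p under 0.05 was 6 and became 10 with the series matrix values, and 4 to 8 when an array was left out. The count of values above 0, 28 of 39, ranged from 24 to 29 in the alternatives that tested 36 to 39 members and was 33 of 48 with no filter on dim probes. Over all genes, 144 were called. This became 706 with no background correction, 633 with plain normexp, 531 with an offset of 50, 81 with median scaling, 731 with the series matrix values, 33 with no filter, 250 with detection on all 6 arrays, 243 with a detection p under 0.01, 61 when every probe was fitted on its own (counting the brightest probe of each gene), 728 with a variance trend and 354 with array weights. Leaving out 1 array gave 0 to 274: 0 without truncated replicate 1 or full-length replicate 1 or 2, 9 without truncated replicate 2, 6 without full-length replicate 3 and 274 without truncated replicate 3. The cause was not tested, beyond the fewer samples.

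Same-numbered deviations from the mean of each form correlated at 0.032, -0.159 and -0.136, and differently numbered ones at -0.036 to 0.183. Same-numbered arrays thus did not stand out. Deviations centred on the 3 arrays of a form sum to 0, which balances the correlations around 0, so they cannot exclude a pairing. With the replicate number as a block 33 genes were called, 0 of them members, and Pdcd4 had an adjusted p of 0.0785.

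Of 32 named genes, 3 turned sign under an alternative, and the cause was not tested. Eef1a1, at 0, had no sign to keep and ran from -0.07 to 0.02. Eif4ebp2 turned to -0.011 with median scaling and -0.050 with array weights, and ran from -0.078 to 0.144 when an array was left out (below 0 without truncated or full-length replicate 3). Ago3 ran from -0.374 to 0.020 (above 0 without truncated replicate 2 or full-length replicate 1). Eef2k ran from -0.201 to 0.174 (above 0 without truncated replicate 1 or full-length replicate 3).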
